A study of Mus musculus with 16 samples.

Results

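The Kruppel-like factors (Klf genes) described here were 8 members of a family of zinc-finger transcription factors: Klf2, Klf3, Klf4, Klf5, Klf6, Klf9, Klf10 and Klf13. They were taken by gene symbol, 8 of the 34042 rows of the deposited count table, and all 8 passed the filter on low counts. For description they were divided by textbook role into the 3 naive members (Klf2, Klf4 and Klf5) and the 5 others. RNA of cultured mouse pluripotent cells was sequenced in bulk in 16 libraries and 4 groups. Formative stem cells (FS) were grown in A3XR medium and gave 6 libraries, replicates 1 to 3 from the line 5ar1 at passages 10, 12 and 14 and replicates 4 to 6 from the line 5ar3 at passages 12, 4 and 5. Epiblast stem cells (EpiSCs) were of the line AF32 when kept in AF (EpiSC_AF, 3 libraries, passages 13, 14 and 15) and of the line AFX6 when kept in AFX (EpiSC_AFX, 3 libraries, passages 12, 5 and 8). The naive group (ES) was the embryonic stem cell line E14IV-C, kept in 2iL and sampled at passages 12, 13, 15 and 20 for 4 libraries. As background, 2iL combines inhibitors of the kinases MEK and GSK3 with the cytokine LIF, A stands for activin, F for FGF2, X for a tankyrase inhibitor that limits Wnt signalling and R for an inverse agonist of retinoic acid receptors. The labels name no genetic change in any line. Outside FS each group was 1 line, so line and medium cannot be told apart, and p-values measure the spread between passages. Within FS the line 5ar3 was mostly sampled at earlier passages than 5ar1, so line and passage cannot be fully told apart.

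Klf proteins bind GC-rich and CACCC-type DNA through 3 zinc fingers at their carboxyl end, which the related Sp factors share. In naive mouse embryonic stem cells Klf2, Klf4 and Klf5 act redundantly in the self-renewal network, Klf4 downstream of LIF and Stat3, and these genes are switched off as cells leave the naive state. The other members are expressed in many tissues: Klf3 is a repressor that recruits CtBP, Klf6 is an immediate-early activator, Klf9 and Klf13 are Sin3-binding factors of the basic transcription element-binding group, and Klf10 is induced early by TGF-beta.

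Total counts ranged from 22069338 to 33290250 per library. The mitochondrial rRNA gene mt-Rnr2 took 38.1% of the counts in ES replicate 1 and 17.7% to 19.0% in the other ES libraries, and the scaling factor of that library was 0.625 against 0.923 to 0.955. ES replicate 1 was the lowest ES library for 7 of the 8 members (all but Klf6), and the part of its composition in that was not tested. The naive markers Zfp42, Esrrb and Tfcp2l1 summed to 2038 to 3171 CPM (counts scaled to library size) in ES and to at most 11.5 CPM in any other library. The epiblast markers Otx2, Fgf5, Pou3f1 and Dnmt3b summed to 39.6 to 103 CPM in ES and to at least 834 CPM in every other library.

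The 8 genes lie on 8 chromosomes. In GENCODE M21 on GRCm38, Klf2 occupies chr8:72319033-72321656 (+), Klf4 chr4:55527143-55532466 (-) and Klf5 chr14:99298691-99315036 (+). Klf3 occupies chr5:64803388-64832901 (+), Klf9 chr19:23141226-23168134 (+) and Klf6 chr13:5861482-5870394 (+). Klf10 occupies chr15:38291463-38300706 (-) and Klf13 chr7:63886351-63938915 (-). Of the exon bases of Klf3, 3.59% lie opposite exons of Gm20033, and the strand setting of the counting is not given in the sources used here. No exon base of the other 7 members is shared with another annotated gene. Stretches of 50 bases found also in transcripts of other genes made up 3.48% of Klf3 and at most 0.263% of any other member.

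RefSeq promoter entries on GRCm38.p6 were matched for 6 of the 8 members (Klf2, Klf3, Klf4, Klf6, Klf9 and Klf13). The 220 bases from 250 to 31 before the start are shown for a pair of naive members, for a member that was not lower outside ES and for a member that was moderately lower. Capitals mark matches on either strand to the GC box, spelled GGGCGG and seen as CCGCCC when it lies on the other strand. They also mark the CACCC box, which is seen as GGGTG in that case. Both are letters that Klf and Sp proteins are known to bind.
Klf2, chr8:72318812-72319031 (+): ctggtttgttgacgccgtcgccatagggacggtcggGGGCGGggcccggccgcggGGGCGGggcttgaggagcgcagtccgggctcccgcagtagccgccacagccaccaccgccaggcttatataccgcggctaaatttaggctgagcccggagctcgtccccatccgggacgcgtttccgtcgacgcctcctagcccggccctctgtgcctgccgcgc
Klf4, chr4:55532506-55532725 (-): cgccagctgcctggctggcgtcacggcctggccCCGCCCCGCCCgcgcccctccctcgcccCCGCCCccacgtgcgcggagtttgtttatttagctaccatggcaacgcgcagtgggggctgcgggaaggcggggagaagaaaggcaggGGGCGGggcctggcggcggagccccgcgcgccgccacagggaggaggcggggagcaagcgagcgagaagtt
Klf6, chr13:5861239-5861458 (+): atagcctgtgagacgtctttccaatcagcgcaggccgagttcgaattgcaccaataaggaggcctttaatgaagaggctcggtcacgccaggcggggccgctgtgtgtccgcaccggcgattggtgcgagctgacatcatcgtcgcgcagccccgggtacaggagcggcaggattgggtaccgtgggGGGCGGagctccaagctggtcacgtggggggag
Klf9, chr19:23140976-23141195 (+): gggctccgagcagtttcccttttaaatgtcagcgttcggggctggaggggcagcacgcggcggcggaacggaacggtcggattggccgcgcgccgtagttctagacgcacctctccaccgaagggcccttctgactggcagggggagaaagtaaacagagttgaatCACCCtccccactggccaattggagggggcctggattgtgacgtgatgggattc
The Klf2 window held 2 GC boxes, the Klf4 window 4 (of which 2 share 1 base), the Klf6 window 1 and the Klf9 window none, with 1 CACCC box in place of it. The windows not shown held 6 GC boxes and 5 CACCC boxes at Klf3, the most of the 6 members matched, with 1 base shared between the motifs, and 1 GC box at Klf13, so the count of boxes did not separate the naive members from the others. Among the same windows of 32851 promoters, 28.5% held a GC box and 47.8% a CACCC box. A Stat-type palindrome, TTCNNNGAA, was in none of these 4 windows and in 6.27% of all. These matches describe letters in the windows and were not tied to binding.

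Against naive ES cells, FS cells had far less mRNA of the 3 naive members, less of Klf3 and Klf9, and levels of Klf6, Klf10 and Klf13 that could not be told from those of ES. Klf2 was 239.7-fold lower in FS, Klf4 76.4-fold, Klf5 38.3-fold, Klf3 4.04-fold and Klf9 2.34-fold. In the quasi-likelihood test of edgeR, 5 of the 8 members were called (Benjamini-Hochberg adjusted p under 0.05 over 18555 genes), all 5 lower in FS, where 62.8% of all tested genes were called, 32.9% higher and 29.9% lower. All 3 naive members and 2 of the 5 others made up the count. The median log2 fold change was -1.62 over the 8 members and 0.04 over all tested genes, and it was -6.25 over the naive members and 0.07 over the others. When libraries were scaled by total counts alone, the median of all genes moved to 0.40, the split of calls moved from 6102 higher and 5543 lower to 7935 and 3322, and Klf6 (0.70, adjusted p 0.0263) and Klf10 (0.59, adjusted p 0.0141) were called higher in FS.

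Both EpiSC groups differed from ES at the same naive members. EpiSC_AF had 6 members called, Klf2, Klf4, Klf5, Klf3 and Klf9 lower and Klf6 higher, against 56.7% of all tested genes (29.7% higher and 27.0% lower). EpiSC_AFX had 5 called, the first 5 of these, all lower, against 54.7% of all tested genes (28.5% higher and 26.2% lower). The median over the 8 members was -1.31 in EpiSC_AF and -1.20 in EpiSC_AFX, and 0.01 over all tested genes in both. These 3 comparisons share the 4 ES libraries, so they are not separate evidence of the level in ES. In bulk libraries, fewer cells with a transcript and less transcript per cell cannot be told apart.

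**Figure D1:**
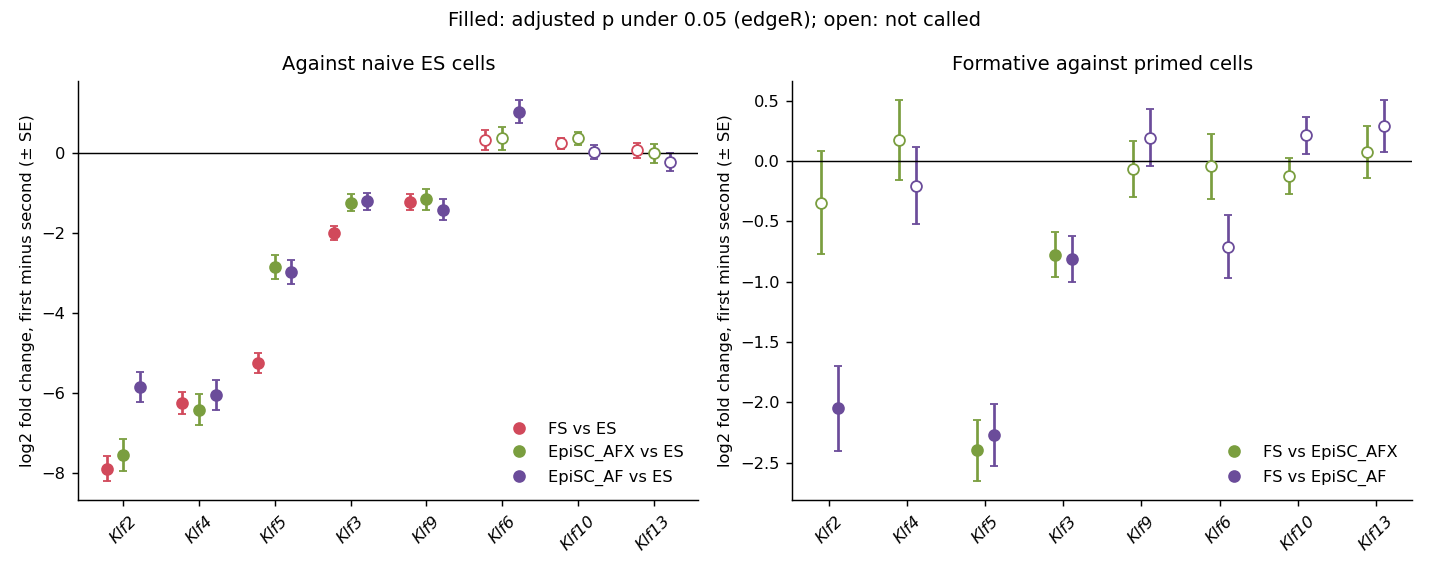
Log2 fold changes (± SE, edgeR) of the 8 Klf members, each group against ES on the left and FS against each EpiSC group on the right; filled points have an adjusted p under 0.05. Klf2, Klf4 and Klf5 lie between -2.86 and -7.91 against ES in all 3 comparisons, and Klf5 and Klf3 lie below 0 in FS against both EpiSC groups.

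Klf2, whose product is the naive Klf most directly stabilized when MEK is inhibited, was measured in ES replicates 1 to 4 at 48.0, 59.3, 64.0 and 56.9 CPM. In FS it ranged from 0.111 to 0.351 CPM with a median of 0.230, from 3 to 11 reads per library. EpiSC_AFX gave 0.506, 0.214 and 0.169 CPM, and EpiSC_AF 1.35, 1.11 and 0.460 CPM. Every ES library was thus above every other library, and the EpiSC_AF libraries were all above the FS libraries but overlapped those of EpiSC_AFX. The log2 fold change against ES was -7.91 in FS (SE 0.31, edgeR adjusted p 1.95e-12), -7.56 in EpiSC_AFX (SE 0.41, edgeR adjusted p 1.63e-10) and -5.86 in EpiSC_AF (SE 0.37, edgeR adjusted p 7.50e-10). At 3 to 15 reads per library, the difference between FS and EpiSC_AFX (-0.35, SE 0.43) was within the error.

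Klf4, the naive member used in reprogramming cocktails, was the most variable of the 3 in ES, at 49.2, 107, 97.8 and 75.5 CPM. The 6 FS libraries ranged from 0.553 to 1.93 CPM with a median of 0.975, and FS replicate 1 was the highest. The EpiSC_AFX libraries had 0.944, 1.04 and 0.881 CPM and the EpiSC_AF libraries 0.996, 1.18 and 1.56 CPM. All groups other than ES overlapped near 1 CPM, at 15 to 52 reads per library, and all stood far below ES. The log2 fold changes against ES were -6.25 in FS (SE 0.28, edgeR adjusted p 8.68e-12), -6.43 in EpiSC_AFX (SE 0.39, edgeR adjusted p 5.42e-10) and -6.05 in EpiSC_AF (SE 0.38, edgeR adjusted p 8.00e-10). Between FS and the EpiSC groups Klf4 differed by 0.17 (SE 0.33) and -0.20 (SE 0.32), neither called.

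Klf5, a naive member also known from trophectoderm, had 62.1, 83.6, 90.5 and 77.2 CPM in ES. It was measured in FS at 1.18 to 2.63 CPM with a median of 2.25, in EpiSC_AFX at 8.97, 8.82 and 14.6 CPM and in EpiSC_AF at 12.6, 6.44 and 10.5 CPM. The libraries fell into 3 separate ranges, ES above both EpiSC groups and both EpiSC groups above FS. Against ES the log2 fold change was -5.26 in FS (SE 0.26, edgeR adjusted p 1.91e-11), -2.86 in EpiSC_AFX (SE 0.30, edgeR adjusted p 4.19e-07) and -2.99 in EpiSC_AF (SE 0.30, edgeR adjusted p 2.56e-07). Unlike Klf2 and Klf4, Klf5 was lower in FS than in both EpiSC groups, by a log2 difference of -2.40 (SE 0.26, edgeR adjusted p 3.04e-05) against EpiSC_AFX and -2.27 (SE 0.26, edgeR adjusted p 1.49e-05) against EpiSC_AF. The trophoblast markers Cdx2, Elf5 and Gata3 summed to at most 3.11 CPM in any library.

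**Figure D2:**
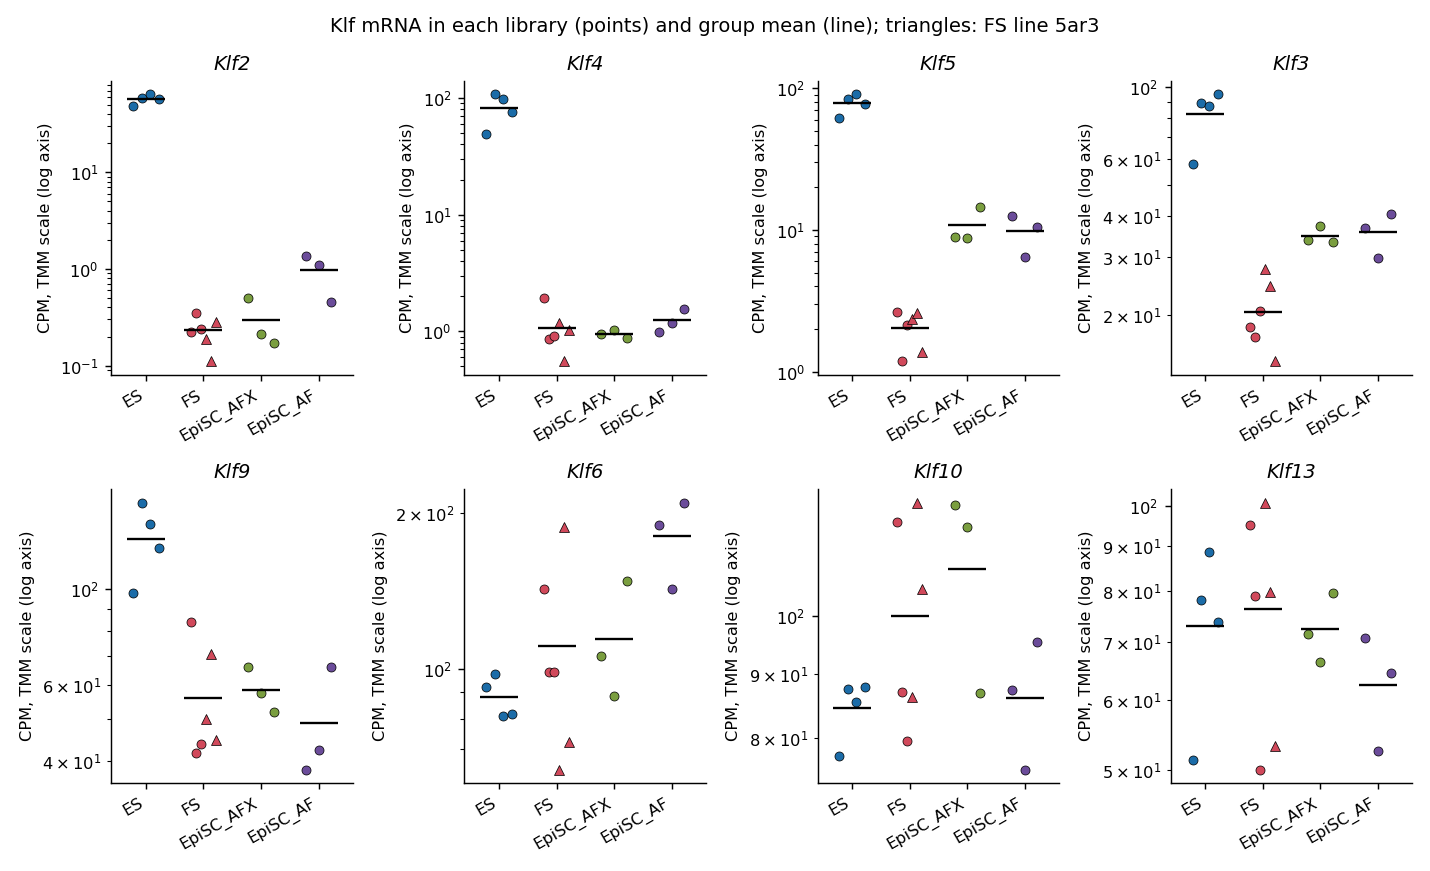
Level of each Klf member (CPM on a log axis, each panel with its own range) in the 16 libraries; points are libraries, triangles the FS line 5ar3, and bars the group means. The ES points of Klf2, Klf4, Klf5, Klf3 and Klf9 lie above all others, while those of Klf6, Klf10 and Klf13 overlap with FS.

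Klf3, the CtBP-recruiting repressor, followed the order of Klf5 over a narrower range. Its ES values were 57.9, 89.4, 87.3 and 94.7 CPM, and its FS values ran from 14.4 to 27.7 CPM with a median of 19.4. EpiSC_AFX had 33.9, 37.4 and 33.5 CPM and EpiSC_AF had 36.8, 29.8 and 40.7 CPM. Again ES, the EpiSC groups and FS occupied 3 ranges with no overlap. Klf3 had log2 fold changes against ES of -2.01 in FS (SE 0.18, edgeR adjusted p 2.60e-08), -1.24 in EpiSC_AFX (SE 0.22, edgeR adjusted p 0.000112) and -1.20 in EpiSC_AF (SE 0.21, edgeR adjusted p 0.000138). FS lay below EpiSC_AFX by -0.78 (SE 0.19, edgeR adjusted p 0.0244) and below EpiSC_AF by -0.81 (SE 0.19, edgeR adjusted p 0.0066). The call against EpiSC_AFX was lost without EpiSC_AFX replicate 1, 2 or 3 (adjusted p 0.0644, 0.107 and 0.0766), and both calls were lost with total counts alone (adjusted p 0.203 and 0.0853) or with the FS line 5ar3 alone (adjusted p 0.0927 and 0.0503). The direction was the same in each of these.

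Klf9, known as a target of glucocorticoid and thyroid hormone receptors, had 97.9, 158, 141 and 124 CPM in ES. FS libraries had 41.7 to 84.0 CPM with a median of 47.4, EpiSC_AFX 65.8, 57.3 and 51.8 CPM and EpiSC_AF 38.2, 42.3 and 66.0 CPM. Every ES library was above every other library, and the other 3 groups overlapped. The log2 fold change against ES was -1.22 in FS (SE 0.21, edgeR adjusted p 6.91e-05), -1.16 in EpiSC_AFX (SE 0.26, edgeR adjusted p 0.00106) and -1.42 in EpiSC_AF (SE 0.26, edgeR adjusted p 0.000186). The differences of FS from EpiSC_AFX (-0.06) and from EpiSC_AF (0.19) were not called.

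Klf6, the immediate-early member, was the only one of the 8 called higher outside ES, and only in EpiSC_AF. ES had 92.2, 97.8, 81.1 and 81.9 CPM and EpiSC_AF had 190, 143 and 210 CPM, with no overlap and a log2 difference of 1.04 (SE 0.29, edgeR adjusted p 0.0057). EpiSC_AFX had 106, 88.4 and 148 CPM (0.37, SE 0.29, edgeR adjusted p 0.298), and FS had 63.8 to 188 CPM with a median of 98.6 (0.33, SE 0.25, edgeR adjusted p 0.265). FS was the most spread group, with its highest and lowest values both in the line 5ar3, at passages 4 and 12. The direct test between the EpiSC groups did not call Klf6 (-0.67, SE 0.31, edgeR adjusted p 0.280), nor did that of FS against EpiSC_AF (-0.71, SE 0.26, edgeR adjusted p 0.0770). Without FS replicate 5 the latter was called (-0.93, adjusted p 0.00819), as it was with the FS line 5ar1 alone (-0.68, adjusted p 0.0361).

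Of the markers of other cell types, the sums for fibroblasts and for the primitive streak and endoderm were highest in EpiSC_AF. Fibroblast markers (Col1a1, Col1a2, Col3a1, Thy1, Postn, Pdgfra and Twist2) were called higher there than in ES at 7 of 7 genes, against 29.7% of all tested genes. They summed to 43.9 to 82.5 CPM in EpiSC_AF, 15.5 to 35.6 CPM in FS, 11.8 to 22.7 CPM in EpiSC_AFX and 2.00 to 2.21 CPM in ES, where Twist2 was at 0. Not all 7 followed the sum: 1 was called higher and 5 lower in FS than in EpiSC_AF, against 7.84% and 8.81% of all tested genes. In EpiSC_AFX 1 was called higher and 4 lower than in EpiSC_AF, against 1.43% and 2.83%. Markers of primitive streak and endoderm (T, Eomes, Mixl1, Gsc, Foxa2, Sox17 and Gata6) were called higher in EpiSC_AF than in ES at 6 of 7 genes. Their sums were 214 to 494 CPM in EpiSC_AF and 15.1 to 75.3 CPM over all other libraries, and none of these markers was at 0 in a whole group. Of the neuroectoderm markers, Sox1 reached its highest level in FS, at 1.05 to 27.3 CPM against 3.57 to 10.4 CPM in EpiSC_AF and at most 2.09 CPM in the other groups, and Neurog2 was at 0 in ES. Sox1, Pax6 and Neurog2 were called higher in FS than in ES, and Sox1 and Neurog2 were lower in the FS line 5ar1 than in 5ar3. No Klf member was called between those lines. Endothelium markers (Pecam1, Cdh5, Kdr and Tek) were highest in ES, at 127 to 138 CPM against at most 6.34 CPM elsewhere, as Klf2, Klf4 and Klf5 were. Pecam1, which naive embryonic stem cells are also known to express, gave 110 to 129 CPM of that sum, and Cdh5 was at 0 in ES. The part of any of these cells in the levels of Klf6 or of the other members was not tested.

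Klf10, the TGF-beta-induced member, kept within a factor of less than 2 over all 16 libraries. It had 77.4, 87.6, 85.5 and 87.9 CPM in ES, 79.6 to 123 CPM with a median of 96.0 in FS, 122, 117 and 86.8 CPM in EpiSC_AFX and 87.4, 75.6 and 95.3 CPM in EpiSC_AF. Its log2 fold change against ES was 0.24 in FS (SE 0.14, edgeR adjusted p 0.148), 0.36 in EpiSC_AFX (SE 0.16, edgeR adjusted p 0.0709) and 0.03 in EpiSC_AF (SE 0.17, edgeR adjusted p 0.907). The groups overlapped, and no comparison called Klf10, but without EpiSC_AFX replicate 3 it was called higher in EpiSC_AFX than in ES (0.51, adjusted p 0.0246), as it was with total counts alone (0.61, adjusted p 0.0306).

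Klf13, a Sin3-binding member, had 51.3, 78.1, 88.5 and 73.6 CPM in ES and 50.01 to 101 CPM with a median of 79.3 in FS. EpiSC_AFX had 71.5, 66.4 and 79.5 CPM and EpiSC_AF 70.6, 52.5 and 64.5 CPM. The groups overlapped throughout. The log2 fold change against ES was 0.07 in FS (SE 0.20, edgeR adjusted p 0.785), -0.01 in EpiSC_AFX (SE 0.23, edgeR adjusted p 0.977) and -0.22 in EpiSC_AF (SE 0.23, edgeR adjusted p 0.432). Klf13 was called in no comparison and under no alternative setting.

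Levels of different genes were compared as CPM per kilobase of annotated exon. In ES the order was Klf2 (30.9 ± 3.64, SD, n = 4), Klf9 (27.1 ± 5.32), Klf4 (27.0 ± 8.49), Klf10 (20.2 ± 1.17), Klf6 (20.1 ± 1.85), Klf5 (15.1 ± 2.33), Klf13 (9.68 ± 2.09) and Klf3 (7.32 ± 1.47). Neighbours from Klf2 down to Klf6 in this order differed by less than the larger of their SDs. In FS the order was Klf6 (25.2 ± 10.7, SD, n = 6), Klf10 (23.9 ± 4.38), Klf9 (11.6 ± 3.62), Klf13 (10.1 ± 2.79), Klf3 (1.81 ± 0.438), Klf5 (0.393 ± 0.120), Klf4 (0.354 ± 0.153) and Klf2 (0.126 ± 0.0441). Here Klf6 and Klf10, Klf9 and Klf13, and Klf5 and Klf4 could not be ordered beyond that spread. Klf2 had the highest mean of the 8 in ES, within the spread of Klf9 and Klf4, and the lowest mean in FS.

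The EpiSC groups had nearly the same order as FS. In EpiSC_AF, Klf6 stood first at 41.2 ± 7.80 CPM per kilobase (SD, n = 3) and Klf10 next at 20.6 ± 2.38, while in EpiSC_AFX they were at 26.0 ± 6.93 and 26.1 ± 4.61. Klf5 was above both other naive members in each EpiSC group, at 1.90 ± 0.606 and 2.07 ± 0.630 CPM per kilobase. Summed over the 8 genes, Klf mRNA came to 157 ± 23.3 CPM per kilobase in ES (126 to 178), 73.5 ± 18.5 in FS (59.9 to 100.4), 79.4 ± 4.29 in EpiSC_AFX and 86.3 ± 14.1 in EpiSC_AF. The naive members made up 46.1% ± 2.51 of that sum in ES, 1.22% ± 0.279 in FS, 3.20% ± 0.597 in EpiSC_AFX and 3.29% ± 0.590 in EpiSC_AF. Klf6 made up 13.01% in ES, 33.4% in FS, 32.5% in EpiSC_AFX and 47.6% in EpiSC_AF. No ES library overlapped any other in the sum or in the naive share.

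**Figure D3:**
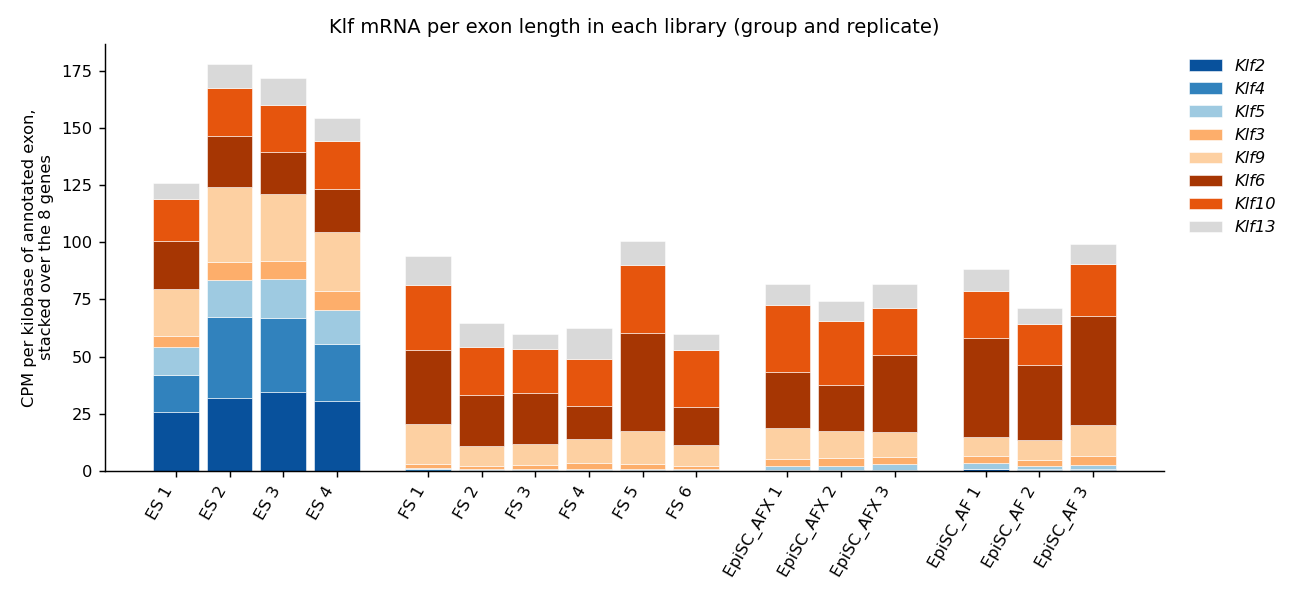
Klf mRNA in each library, stacked over the 8 members as CPM per kilobase of annotated exon; each bar is 1 library, named by group and replicate. The ES bars reach 126 to 178 with 3 blue naive segments, and the FS bars reach 59.9 to 100.4 and consist mostly of Klf6 and Klf10.

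Formative and primed cells were called different at 2 or 3 of the 8 members, depending on the EpiSC group. Against EpiSC_AFX, FS had 2 of the 8 called, Klf5 and Klf3, both lower, where 5.00% of all tested genes were called, 2.89% higher and 2.10% lower. Against EpiSC_AF, 3 were called, Klf2, Klf5 and Klf3, all lower, where 16.6% of all tested genes were called, 7.84% higher and 8.81% lower. Klf2 was lower in FS than in EpiSC_AF by a log2 difference of -2.05 (SE 0.35, edgeR adjusted p 0.000639), with 3 to 11 reads in FS libraries and 13 to 42 in EpiSC_AF libraries. The median over the 8 members was -0.09 against EpiSC_AFX and -0.46 against EpiSC_AF, and 0.04 over all tested genes in both. No member was called higher in FS than in either EpiSC group. These 2 comparisons share the FS libraries.

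Between the EpiSC groups only Klf2 was called, lower in EpiSC_AFX by a log2 difference of -1.70 (SE 0.41, edgeR adjusted p 0.0237), where 4.26% of all tested genes were called, 1.43% higher and 2.83% lower. The libraries overlapped, since EpiSC_AF replicate 3 (0.460 CPM) was below EpiSC_AFX replicate 1 (0.506 CPM). The call was lost without EpiSC_AF replicate 1 or 2 or EpiSC_AFX replicate 2 or 3 (adjusted p 0.126, 0.0947, 0.128 and 0.134), with passage as a covariate (adjusted p 0.0880) and in a fit to these groups alone (adjusted p 0.0792). Between the FS lines 5ar1 and 5ar3 no member was called, where 3.88% of all tested genes were (1.86% higher and 2.02% lower), and the member log2 fold changes ran from -0.25 for Klf3 to 0.52 for Klf2. None reached an adjusted p under 0.58.

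The family's other 9 genes in the table moved in both directions. Klf1 (at most 13 reads in a library) and Klf17 (at most 6) did not pass the filter on low counts. Of the 7 tested, 4 were called higher in FS than in ES (Klf7, Klf11, Klf12 and Klf14) and 2 lower (Klf8 and Klf15), against 32.9% and 29.9% of all tested genes, and the median of the 7 was 0.57 on the log2 scale. In each EpiSC group 3 were called higher (Klf7, Klf12 and Klf14) and 2 lower (Klf8 and Klf15), where 56.7% of all tested genes were called in EpiSC_AF and 54.7% in EpiSC_AFX. Klf16 was not called in any comparison.

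Klf8, an X-linked CtBP-binding repressor of the same subgroup as Klf3 and Klf12, had 62.2, 104, 101 and 95.3 CPM in ES and 7.48 to 13.8 CPM in FS. EpiSC_AFX had 8.67, 9.60 and 9.73 CPM and EpiSC_AF 8.42, 9.94 and 11.8 CPM. No other group reached the ES range, and the log2 fold change in FS was -3.03 (SE 0.19, edgeR adjusted p 5.65e-10). Klf12, from that subgroup too, went the other way, at 1.66 to 3.96 CPM in ES and 4.81 to 11.04 CPM in FS (1.60, SE 0.28, edgeR adjusted p 8.37e-05).

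Klf15, known for amino acid and glucose metabolism, had library ranges that did not overlap between the 4 groups, though not every difference was called. It had 47.5, 36.3, 39.5 and 35.3 CPM in ES, 8.48 to 27.9 CPM with a median of 13.8 in FS, 7.25, 6.89 and 7.12 CPM in EpiSC_AFX and 3.95, 2.32 and 4.88 CPM in EpiSC_AF. FS exceeded EpiSC_AF by a log2 difference of 2.02 (SE 0.33, edgeR adjusted p 0.000417), whereas the excess over EpiSC_AFX was 1.09 (edgeR adjusted p 0.0514) and was not called. EpiSC_AFX and EpiSC_AF differed by 0.93 (edgeR adjusted p 0.161), also not called. Nor did the FS lines overlap, at 15.1 to 27.9 CPM in 5ar1 and 8.48 to 12.6 CPM in 5ar3 (edgeR adjusted p 0.0549, not called). Klf7 was higher outside ES, with 8.98 to 12.2 CPM in ES and 28.6 to 42.3 CPM in FS (1.86, SE 0.15, edgeR adjusted p 6.71e-09). Exons of Gm26649 on the opposite strand cover 39.3% of the exon bases of Klf7, so its counts are uncertain. Klf14 had at most 4 reads in an ES library and 16 to 34 in an FS library.

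**Figure D4:**
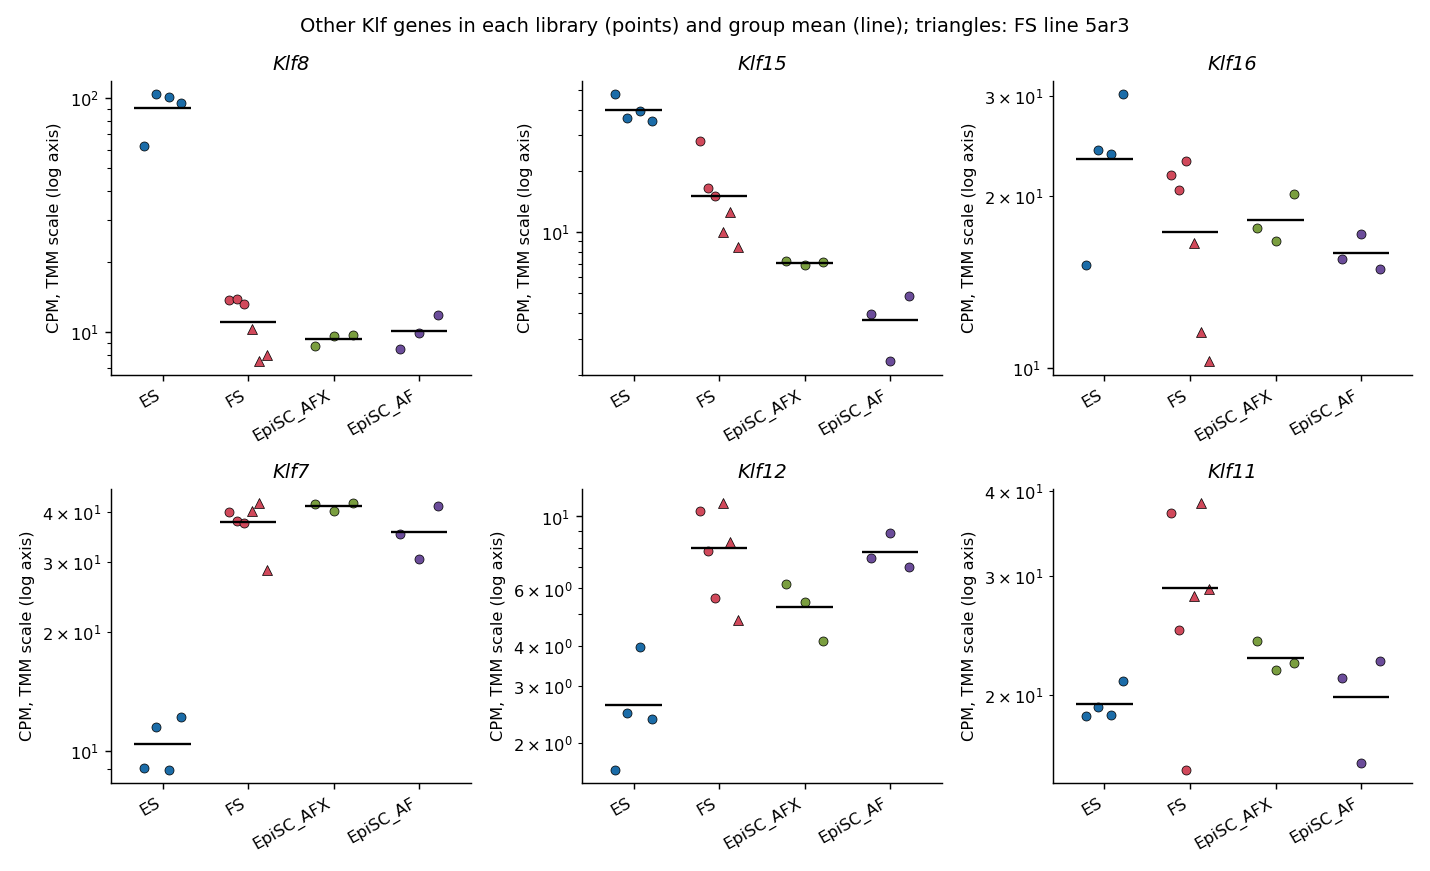
Level of 6 further Klf genes (CPM on a log axis, each panel with its own range) in the 16 libraries; points are libraries, triangles the FS line 5ar3, and bars the group means. Klf8 and Klf15 are highest in ES, Klf7 and Klf12 are lowest there, and Klf11 and Klf16 overlap between ES and FS.

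The Sp factors bind the same GC boxes. Of 9 listed, 8 were tested, and all 8 were called between FS and ES, 4 in each direction, against 62.8% of all tested genes, and the median of the 8 was 0.16 on the log2 scale. The Wnt-responsive Sp5 was at 23.6 CPM in ES, 5.57 in EpiSC_AF, 0.148 in EpiSC_AFX and 0.0549 in FS as group means. At 0 to 3 reads per FS library against 74 to 333 in EpiSC_AF and 251 to 745 in ES, Sp5 was called lower in FS than in ES (edgeR adjusted p 1.96e-09) and than in EpiSC_AF (edgeR adjusted p 3.06e-06). The ubiquitous Sp1 and Sp3 were lower in FS than in ES by -0.36 and -0.61, the former with overlapping libraries. Against EpiSC_AFX no Sp factor was called in FS by edgeR, and against EpiSC_AF 2 were called higher (Sp1 and Sp6) and 2 lower (Sp5 and Sp8), where 16.6% of all tested genes were called.

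The naive network partners of these factors were lower with them. Of 9 listed, 8 were called lower than in ES in each of the 3 other groups and none higher, where 29.9%, 27.0% and 26.2% of all tested genes were lower in FS, EpiSC_AF and EpiSC_AFX. The medians of the fitted log2 fold changes were -8.78 in FS, -9.08 in EpiSC_AF and -9.49 in EpiSC_AFX. Nanog fell least of the 8 in FS (-2.72, SE 0.19) and stayed at 126 CPM, and Sall4 was not called (0.14, edgeR adjusted p 0.575). Zfp42 and Prdm14 had at most 5 reads in any library outside ES, against 3808 to 9154 and 613 to 1259 reads in ES, too few for a fold to be given. FS was below both EpiSC groups in Gbx2, by -2.37 and -2.84, at 1 to 14 reads per FS library. The FS and EpiSC_AFX libraries overlapped, since EpiSC_AFX replicate 3 (0.203 CPM) was below FS replicates 3 and 5 (0.474 and 0.221 CPM). This list was chosen with earlier results of these libraries known, and its direction is no independent evidence.

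Genes of the LIF and Stat3 pathway, which feeds Klf4 in naive cells, were lower in FS than in ES at 5 of 6 and higher at none, against 29.9% of all tested genes lower. The receptor genes Lifr (-3.56, SE 0.21) and Il6st (-2.68, SE 0.14), the factor Stat3 (-2.96, SE 0.19), its feedback inhibitor Socs3 (-3.45, SE 0.24) and the ligand gene Lif (-1.01, SE 0.28) were called, and the kinase gene Jak1 was not (0.03). EpiSC_AF had the same count, 5 lower, against 27.0% of all tested genes, and EpiSC_AFX had 4, against 26.2%. Lifr, Stat3 and Socs3 were also lower in FS than in EpiSC_AF, by -0.93, -1.23 and -0.79, where 8.81% of all tested genes were lower. Against EpiSC_AFX none of the 6 was called in FS by edgeR, where 5.00% of all tested genes were.

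Genes induced by ERK signalling, the pathway that MEK inhibition blocks, were compared next. Of 8 listed, 5 were called higher in FS than in ES (Dusp4, Dusp6, Spry4, Spred1 and Egr1) and 1 lower (Etv5), where 32.9% and 29.9% of all tested genes were. Egr1 differed by 4.88 on the log2 scale (SE 0.56) and Etv5 by -1.49 (SE 0.38). The same 5 were called higher in each EpiSC group, against 29.7% of all tested genes in EpiSC_AF and 28.5% in EpiSC_AFX. Etv5 was called lower in EpiSC_AF too, against 27.0%, and none of the 8 was called lower in EpiSC_AFX. FS was below EpiSC_AFX in Egr1 (-1.56) and Dusp6 (-1.27) and below EpiSC_AF in Dusp4 (-2.16), Dusp6 (-1.07) and Spred1 (-0.82). Between the FS lines, Dusp6 and Etv5 were higher in 5ar1, but line and passage are mixed in this comparison. In 5ar3, Etv5 had 112 CPM at passage 12 and 35.6 and 32.2 CPM at passages 4 and 5. Dusp6 had 57.4, 33.5 and 35.7 CPM in the same libraries, and the part of passage in these genes was not tested.

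Early TGF-beta genes, the class to which Klf10 belongs, were split. Skil was higher in FS than in ES (1.77, SE 0.18) and Smad7 was lower (-1.79, SE 0.40). Of 4 glucocorticoid targets, listed because Klf9 is one, Tsc22d3 (2.70, SE 0.20) and Per1 (1.32, SE 0.36) were higher in FS than in ES and Fkbp5 (-0.97, SE 0.17) and Dusp1 (-0.59, SE 0.20) were lower, 4 of 4 called against 62.8% of all tested genes, so that the list did not move one way with Klf9.

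Genes for proteins that work with Klf factors or act in their turnover were called in part. Of 8 cofactor genes, 4 were called between FS and ES, against 62.8% of all tested genes: Ctbp1 (0.57, SE 0.14) and Fhl3 (0.64, SE 0.26) were higher in FS than in ES and Hdac1 (-0.56, SE 0.14) and Sin3b (-0.43, SE 0.15) were lower. Fhl3 was also higher than in ES in EpiSC_AFX (1.06, SE 0.29) and EpiSC_AF (0.75, SE 0.30). No cofactor gene was called by edgeR between FS and either EpiSC group. The 4 turnover genes Wwp1, Fbxw7, Btrc and Usp10 were called in none of the 7 comparisons by edgeR, and in FS against ES their log2 fold changes ran from -0.06 to 0.14.

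The genes whose pattern over the 16 libraries was most like each member were found as the smallest root mean square difference of centred log2 CPM among 9637 genes with a mean of at least 10 CPM. Closest to Klf2 were Lncenc1 (0.65 log2 units) and Zyg11a (0.66), to Klf4 C78283 (0.53) and Ttn (0.55), and to Klf5 Camk1d (0.54) and Tead4 (0.61). Closest to Klf3 were Rai14 (0.24) and Vangl1 (0.26), and to Klf9 Dst and Fam76a (0.17 each). Closest to Klf6 were Pawr (0.23) and Daam1 (0.24), to Klf10 Kctd18 and Zdhhc17 (0.14 each), and to Klf13 Ptpn23 (0.15) and Phlpp1 (0.17). The naive members had the larger distances, on a measure that is not scaled to the size of a gene's changes. Pearson correlations with these nearest genes were 0.956 to 0.985 for the naive members and 0.791 to 0.964 for the others. No 2 of the 8 members were among each other's 2 nearest genes.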

How the data were processed

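Bulk RNA was measured in 16 libraries. Per the labels' protocols, cells were lysed in Trizol, RNA was purified on columns, and the library kit was directional. Per the submitters' processing notes, the tools were Trim Galore, TopHat2 2.1.0 and featureCounts 1.5.0, on mm10; strand setting and annotation release are not given in the sources used here. The deposited values are raw counts per gene from the authors, and 6 further columns that matched no sample were left out. GENCODE M21 held 33860 of the 34042 gene identifiers and gave coordinates and exon lengths.

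Counts were fitted with edgeR 4.0.16 in R 4.3.3 (filterByExpr, TMM scaling, robust quasi-likelihood, a mean per group over all 16 libraries), with Benjamini-Hochberg adjustment over the 18555 tested genes and calls at an adjusted p under 0.05. The FS lines were compared with a mean per line. CPM is on the TMM scale. Pattern distances used log2 CPM with a prior count of 2. Samples were grouped by medium, and replicate numbers, given in accession order, do not pair libraries. No libraries of a line agreed within sampling noise (lowest chi-square per degree of freedom 8.40). The procedure was tested on simulated data in which few genes were changed. That test does not cover changes as wide as those between FS and ES, where 62.8% of tested genes were called. Totals are counts without molecular identifiers, so depth gives counting error only.

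Genes named are the 8 members, list genes called at a log2 fold change of 1 or more in size, those that set a list's range or make up a short count, and the 2 nearest patterns of each member. Singly named list genes were picked with their values seen. A result each of the early TGF-beta and neuroectoderm lists is not reported here. The members, lists and alternatives were chosen with earlier results of these data known. Alternatives were DESeq2 1.42.0 (size factors, Wald test), total counts, other filters, no mitochondrial rRNA genes, passage as a covariate, only the groups compared, single FS lines, a mean per line and leaving out each library.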

Additional observations from a re-analysis of the deposited data

How the results depend on the processing

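Of 952 fold changes of single members under the alternatives, 933 kept their side of the threshold, 13 lost the call and 6 gained it. The sign changed in 39, in 0 of which the member was called under either setting, with sizes of at most 0.39 on the log2 scale, and 894 kept both sign and side. Against ES, members called numbered 5 to 7 in FS, 6 in EpiSC_AF and 5 to 6 in EpiSC_AFX over all alternatives. Klf2, Klf4, Klf5, Klf3 and Klf9 were called lower in each of these.

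Of FS against EpiSC_AFX, 1 member instead of 2 was called with total counts alone and with only FS line 5ar3, and 1 to 2 when leaving out each library. Between the EpiSC groups, 0 instead of 1 was called with passage as a covariate and with only the groups compared, and 0 to 1 when leaving out each library. The causes were not tested.

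Counts of all genes called moved more. FS against EpiSC_AFX (927) gave 571 with only the groups compared, 1782 with only FS line 5ar3, 1429 with a mean per line, 1639 with the DESeq2 Wald test and 380 to 1221 when leaving out each library. EpiSC_AFX against EpiSC_AF (791) gave 2275 with only the groups compared, 1383 with the DESeq2 Wald test and 351 to 924 when leaving out each library. The FS lines (720) gave 431 with passage as a covariate, 398 with only the groups compared, 1292 with the DESeq2 Wald test and 289 to 1567 when leaving out each library. FS against EpiSC_AF (3089) gave 1799 to 3464 when leaving out each library. Some of these fits used fewer libraries, the counts moved both up and down, and the causes were not tested. No paired analysis was possible because the replicate numbers follow accession order and the labels pair no libraries. Depth limits Klf2 outside ES, where 3 to 42 reads per library were counted.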
